A study of Mus musculus with 4 samples.

Results

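Erythroid cells, the cells of the red blood cell lineage, were chosen from single-cell RNA libraries of embryonic day (E) 13 to 13.5 mouse thymic lobes by their hemoglobin transcripts. A cell was kept when it held at least 200 genes and at most 10% of its unique molecular identifiers (UMIs, 1 for each captured RNA molecule) on mitochondrial genes. It was taken as erythroid when at least 30% of its UMIs fell on the 7 globin genes Hba-a1, Hba-a2, Hba-x, Hbb-bs, Hbb-bt, Hbb-y and Hbb-bh1. The rule chose 1230 of 29510 kept cells. There was 1 library per condition, so no difference between conditions has a replicate check and none was tested. The 4 libraries were Tbx1+/+ embryos of carrier-injected dams, Tbx1neo2/neo2 embryos of carrier-injected dams, Tbx1neo2/neo2 embryos of dams given minoxidil, and Tbx1neo2/neo2 embryos of dams given prostaglandin E2 (PGE2). Dams came from intercrosses of Tbx1+/neo2 mice and were injected intraperitoneally on E8, E9 and E10. The carrier was 5% ethanol, minoxidil was given as 200 µl at 0.55 mg/ml, and PGE2 as 90 µl at 3.6 ng/µl. The neo2 allele lowers Tbx1 expression through a neomycin cassette set into one of its introns, which makes the homozygotes a model of thymic hypoplasia, and hypoplastic lobes were pooled. The number of embryos per library is not given in the sources used here. Where 4 values stand in a row, they follow the order Tbx1+/+ carrier, Tbx1neo2/neo2 carrier, minoxidil and PGE2. Total UMIs per library were 292687940, 194023208, 151740600 and 156363845.

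Mouse embryos make red cells in separate waves. Primitive erythroid cells arise in the yolk sac, enter the blood while still nucleated, and mature there as a cohort, using the embryonic globins Hbb-y (εy), Hbb-bh1 (βh1) and Hba-x (ζ) beside the adult α-globins. Definitive erythroid cells mature in the fetal liver on macrophages, expel the nucleus before or around their entry to the blood, and use the adult β-globins Hbb-bs and Hbb-bt with the α-globins Hba-a1 and Hba-a2. At this stage the blood holds both kinds, and blood in the vessels of a dissected organ is carried into its cell suspension.

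The proximal promoters of 4 globins are shown because the 2 classes described here differ in their use. Hbb-y, Hbb-bs and Hbb-bt set the limit between the classes, together with Hbb-bh1, which is not shown, and Hba-x was not used for the limit. Each line holds the 150 bases before the RefSeq transcript start in the mouse build GRCm38.p6, written 5′ to 3′ on the gene's own strand. Capitals mark 3 motifs on either strand, which are CACCC (the box bound by KLF factors), CCAAT (the box named for its letters, read ATTGG on the other strand) and GATAA (a motif of GATA factors).
Hbb-y (chr7:103853208-103853357, minus strand): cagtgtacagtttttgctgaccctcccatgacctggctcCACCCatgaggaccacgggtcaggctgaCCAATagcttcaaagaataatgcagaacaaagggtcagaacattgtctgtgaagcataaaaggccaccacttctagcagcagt
Hbb-bs (chr7:103827929-103828078, minus strand): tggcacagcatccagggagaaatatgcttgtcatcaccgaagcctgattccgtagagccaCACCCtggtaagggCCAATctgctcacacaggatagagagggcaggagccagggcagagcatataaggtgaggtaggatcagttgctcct
Hbb-bt (chr7:103813924-103814073, minus strand): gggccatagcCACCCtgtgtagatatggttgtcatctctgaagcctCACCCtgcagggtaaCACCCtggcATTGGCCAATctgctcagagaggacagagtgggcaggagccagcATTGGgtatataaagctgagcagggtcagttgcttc
Hba-x (chr11:32276450-32276599, plus strand): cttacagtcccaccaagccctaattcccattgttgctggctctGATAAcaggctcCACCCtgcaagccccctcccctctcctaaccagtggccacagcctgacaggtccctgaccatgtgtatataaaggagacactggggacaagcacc
Counting back from the start, CACCC began at -111 and CCAAT at -83 in Hbb-y, and at -90 and -76 in Hbb-bs. Hbb-bt held CACCC at -140, -104 and -89 and CCAAT at -75, with ATTGG at -80 next to it and at -36. Hba-x held CACCC at -95 and the only GATAA of the 4 windows at -107, and no CCAAT in either direction. Of 32851 mouse promoters of this length, 37.4% held CACCC, 24.5% CCAAT and 13.3% GATAA on either strand. A match of letters is a description and not evidence of binding.

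Erythroid markers other than globins were strong in the chosen cells. UMIs of single genes are given as counts per 1000000 non-globin UMIs (CPM), with all UMIs of the cells of a library summed. Alas2, the first enzyme of heme synthesis in red cells, stood at 2834, 2378.5, 6096 and 4623 CPM, against 0.637, 0.338, 0.177 and 0.192 CPM in the kept cells with under 5% globin UMIs. Rhag (the Rh-associated glycoprotein) stood at 32.3, 26.3, 74.2 and 47.1 CPM against 0.0141, 0.0982, 0.231 and 0, and Slc4a1 (the anion exchanger band 3) at 613, 506, 1047 and 588 CPM against 0.172, 0.180, 0.211 and 0.0481. Every library was higher in the chosen cells for these 3 genes. The factors Klf1 and Gata1 had few UMIs, with 33, 28, 31 and 52 of Klf1 and 16, 9, 7 and 18 of Gata1 over all chosen cells of each library. These are counts and not CPM. Klf1 was still at least 2-fold above the other kept cells in CPM in the Tbx1neo2/neo2 carrier, minoxidil and PGE2 libraries. The progenitor genes Kit, Gata2, Myb, Cd34, Spi1 and Cd44 were too low to enter the comparisons of the cells with the most globin, where Kit had 0 UMIs in the embryonic class of all 4 libraries and 1, 0, 3 and 0 in the adult class. The 6 together had 47, 57, 8 and 112 UMIs in all chosen cells and 14, 10, 8 and 8 in those with the most globin. The globin rule itself leaves out erythroid progenitors that hold little globin. By these markers the label of the cells held. Ahsp, which codes for the chaperone of α-globin, was fixed as a marker but was not found under that symbol.

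Some chosen cells also carried RNA of other cell types. Markers of mesenchymal, epithelial, lymphoid, macrophage, endothelial, megakaryocyte, granulocyte and mast, and cartilage cells made at least 5 of every 1000 non-globin UMIs in 11, 47, 0 and 12 cells. These cells had a median of 38.4, 42.9 and 37.7% globin UMIs in the Tbx1+/+ carrier, Tbx1neo2/neo2 carrier and PGE2 libraries, and they gave 27.3, 37.7, 0 and 27.4% of all non-globin UMIs of the erythroid cells. No doublets were called, and whether the cells were doublets or held free RNA was not tested. Comparisons of non-globin genes were therefore also made in restricted cells, those with at least 70% globin UMIs and fewer than 5 such marker UMIs per 1000, which numbered 228, 417, 140 and 335. In restricted cells, summed mesenchymal markers were at 166, 325, 187 and 78.8 CPM (all 6 genes had UMIs in 3 of the libraries, Col3a1 leading) against 1649, 2368, 417 and 1577 CPM in all erythroid cells. Epithelial markers were at 333, 104, 226 and 165 CPM, led by Krt18 or Krt8, lymphoid markers at 100.9, 27.2, 85.3 and 98.9 CPM, led by Gzma, and cartilage markers at 7.56, 57.6, 0 and 6.18 CPM. Macrophage markers were at 15.1, 22.4, 30.3 and 9.27 CPM, endothelial markers at 22.7, 11.2, 13.8 and 13.9 CPM, megakaryocyte markers at 12.6, 12.8, 8.25 and 0 CPM, and granulocyte and mast cell markers at 32.8, 4.80, 35.8 and 7.72 CPM.

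The libraries differed in the makeup of their embryos. In the other kept cells, Xist (made from the inactive X chromosome of females) stood at 169, 129, 638 and 0.330 CPM and the Y-linked Ddx3y at 34.2, 56.3, 0.00680 and 47.7 CPM, so that the minoxidil library held almost no Ddx3y and the PGE2 library almost no Xist. Erythroid cells held 46, 87, 50 and 0 UMIs of Xist and 12, 46, 2 and 32 of Ddx3y. The other kept cells of the minoxidil library held 1 UMI of Ddx3y, so its 2 UMIs in erythroid cells did not follow them. The sex of the embryos and the treatment cannot be told apart in the drug libraries. Tbx1 itself had 1, 1, 0 and 1 UMIs in erythroid cells, too few to check the genotype there, and 656, 443, 370 and 176 UMIs, or 2.31, 2.42, 2.51 and 1.21 CPM, in the other kept cells. In those cells Tbx1 was no lower in the Tbx1neo2/neo2 carrier and minoxidil libraries than in the Tbx1+/+ library, so its level does not show the lowered expression described for the neo2 allele, and only the PGE2 library was lower. These values are over all other kept cells and not over the cells that use Tbx1. The library names are those of the labels throughout, and each difference between genotypes is between libraries labelled so. Between 4 and 35 barcodes were shared by each pair of libraries among all deposited barcodes, and 0 among erythroid cells.

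Erythroid cells made up 2.15% of the kept Tbx1+/+ carrier cells (exact 95% interval 1.89 to 2.44, 247 of 11474), 4.53% of the Tbx1neo2/neo2 carrier cells (4.14 to 4.94, 484 of 10683), 4.47% of the minoxidil cells (3.78 to 5.24, 143 of 3201) and 8.57% of the PGE2 cells (7.74 to 9.47, 356 of 4152). The share was lowest in the Tbx1+/+ and highest in the PGE2 library, and the intervals of the other two overlapped. The order of the latter depended on the cell filters, the Tbx1neo2/neo2 carrier and minoxidil shares being 10.6 and 6.55% with a mitochondrial limit of 5%, and 1.58 and 2.80% with at least 500 genes, where the PGE2 share was 2.91%. Intervals of shares are binomial (Clopper-Pearson) and those of UMI sums Poisson, and both cover counting error only. How much blood stayed in the lobes was not measured, and the shares are given as a description. The globin limit lay in a sparse range. Cells with 20 to 30% globin UMIs numbered 15, 18, 4 and 10, and those with 30 to 50% numbered 16, 46, 2 and 16. On both sides of the limit they were rich in other RNA, with a median of 4795, 4819.5, 6644 and 5611 genes just below it and 4571.5, 3327.5, 2563 and 5057 just above. Over all erythroid cells the median was 492, 410, 538 and 409.5 genes, and 88.9, 88.5, 89.4 and 91.9% globin UMIs. The minimum of 200 genes left out a further 17, 113, 11 and 68 globin-rich cells, which had a median of 145, 158, 162 and 150 genes, and the mitochondrial limit left out none.

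The erythroid cells fell into 2 classes by β-globin. Hbb-y and Hbb-bh1 together made at least 50% of the β-like UMIs (Hbb-y, Hbb-bh1, Hbb-bs and Hbb-bt) in 130 of 247 Tbx1+/+ carrier cells, or 52.6% (exact 95% interval 46.2 to 59.0). They did so in 180 of 484 Tbx1neo2/neo2 carrier cells, or 37.2% (32.9 to 41.7), in 42 of 143 minoxidil cells, or 29.4% (22.1 to 37.6), and in 98 of 356 PGE2 cells, or 27.5% (23.0 to 32.5). The Tbx1+/+ share was above the other three beyond counting error, while the minoxidil interval overlapped those of both other Tbx1neo2/neo2 libraries. In restricted cells the shares were 50.4, 37.9, 28.6 and 26.9%. Almost no cell was intermediate: 0, 4, 0 and 1 cells had an embryonic share between 10 and 70%, and 0, 1, 0 and 0 lay within 10 points of the limit. Per 1000 kept cells there were 11.3 (9.47 to 13.4), 16.8 (14.5 to 19.5), 13.1 (9.47 to 17.7) and 23.6 (19.2 to 28.7) mostly embryonic cells, against 10.2 (8.44 to 12.2), 28.5 (25.4 to 31.8), 31.6 (25.8 to 38.2) and 62.1 (54.99 to 69.9) mostly adult cells. Between the lowest and the highest library the adult class thus varied more than the embryonic class. The exact age of the embryos of each library within E13 to 13.5 is not given, and age and condition cannot be told apart.

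**Figure D1:**
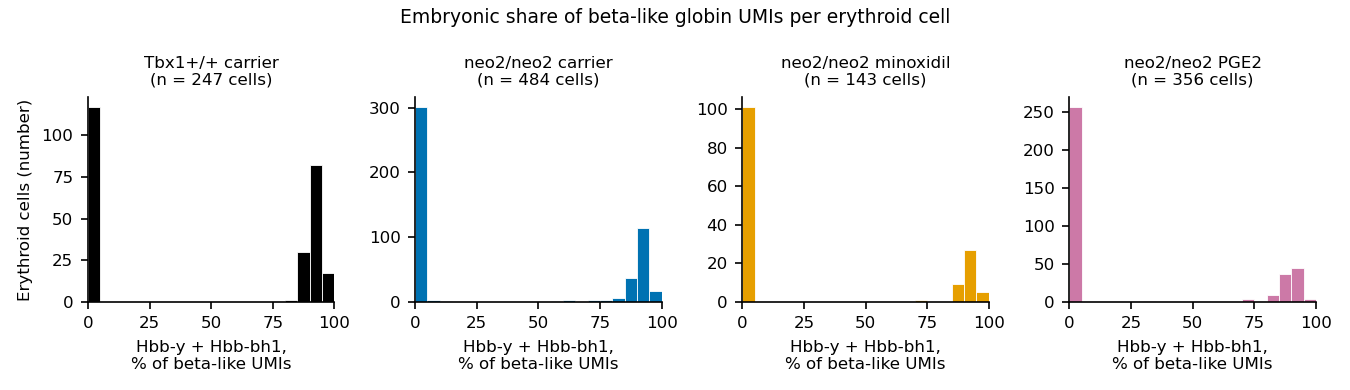
Number of erythroid cells by the share of Hbb-y and Hbb-bh1 among their β-like UMIs, in bins along the horizontal axis, with 1 panel for each of the 4 libraries. Cells gather at the low and at the high end in every library, with 0, 4, 0 and 1 cells between 10 and 70%.

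Within the embryonic class, Hbb-y led. In restricted cells it made 91.2, 90.7, 91.5 and 88.6% of β-like UMIs, Hbb-bh1 0.587, 0.443, 0.343 and 0.348%, Hbb-bs 3.70, 3.95, 3.56 and 5.34% and Hbb-bt 4.49, 4.96, 4.58 and 5.74%. The adult pair was present in this class at a few percent each, with Hbb-bt above Hbb-bs in all 4 libraries. Hba-x, which the class limit did not use, made 31.1, 28.2, 31.0 and 23.7% of α-like UMIs there, against 0.00340, 0.00687, 0.00691 and 0.274% in the adult class. A single cell held 97.7% of the adult-class Hba-x UMIs of the PGE2 library, and without it the share there was 0.00638%. Its share in single embryonic cells ran from a lowest value of 5.74, 5.49, 11.5 and 2.58% through a median of 30.6, 26.1, 28.5 and 21.6% to a highest of 63.1, 71.7, 70.6 and 63.8%, so that cells of this class differed widely. In the adult class Hbb-bs made 68.4, 67.0, 69.1 and 67.9% and Hbb-bt 31.5, 32.9, 30.8 and 31.9% of β-like UMIs, so that their order was the reverse of that in the embryonic class. Hba-a1 was above Hba-a2 in both classes, at 43.9, 46.4, 44.2 and 49.3% against 24.96, 25.3, 24.8 and 26.9% of α-like UMIs in embryonic and 54.8, 55.7, 54.4 and 55.8% against 45.2, 44.3, 45.6 and 43.9% in adult cells. Hba-a1 and Hba-a2 are near-identical copies, so their split is uncertain. The median cell held 0.391, 0.382, 0.421 and 0.553 α-like UMIs per β-like UMI in the embryonic and 0.433, 0.436, 0.417 and 0.509 in the adult class, highest in the PGE2 library in both.

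Hbb-bh1 was also found in a small set of adult-class cells with little or no Hbb-y. In the restricted adult class, 2, 16, 6 and 11 cells held at least 10 Hbb-bh1 UMIs, 35 in all, and these cells held 78.4, 98.8, 99.6 and 95.8% of the Hbb-bh1 UMIs of their class. Of the 35 cells, 34 had at most 10 Hbb-y UMIs and 27 had 0 Hba-x UMIs. The richest Tbx1neo2/neo2 carrier cell held 914 Hbb-bh1 UMIs beside 1 Hbb-y, 0 Hba-x, 3793 Hbb-bs and 2394 Hbb-bt UMIs. The richest minoxidil cell held 774 Hbb-bh1 beside 0 Hbb-y and 9947 Hbb-bs UMIs, the richest Tbx1+/+ cell 53 beside 1 and 3807, and a PGE2 cell 191 beside 0 and 6855. For each Hbb-y UMI there were 1.46, 8.60, 13.2 and 0.168 Hbb-bh1 UMIs in the adult class, against 0.00644, 0.00488, 0.00375 and 0.00393 in the embryonic class. The limit between the classes leaves little Hbb-y in the adult class, so nothing is read from the difference of these ratios. The PGE2 value is low because a single cell with 7465 Hbb-y, 4571 Hba-x, 637 Hbb-bh1 and 9144 Hbb-bs UMIs holds 97.0% of the Hbb-y UMIs of that class, and whether it was a doublet was not tested. The median adult-class cell held 0, 1, 1 and 0 Hbb-y UMIs. The 35 cells were singled out after their values were seen.

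The classes differed in the amount and the kind of RNA beside globin, in the same direction in all 4 libraries. Restricted embryonic cells held a median of 2117, 1869.5, 3656 and 2331.5 non-globin UMIs and 543, 452.5, 645.5 and 468.5 genes, and adult cells 1119, 1093, 1938.5 and 1420 UMIs and 382, 341, 476.5 and 364 genes. Cells were then thinned at random to 500 non-globin UMIs. Those with fewer were left out, which were 4, 8, 1 and 0 restricted cells, all of the adult class. The order of the gene number then turned in all 4 libraries, with 207, 191.5, 193.5 and 176 genes in the embryonic and 226, 206, 202 and 191 in the adult class. Mitochondrial transcripts made a median of 0.609, 0.720, 0.331 and 0.194% of the non-globin UMIs in embryonic and 4.61, 4.89, 4.80 and 3.70% in adult cells. Transcripts of ribosomal proteins made 22.3, 22.8, 21.1 and 23.9% in embryonic and 11.7, 14.0, 11.9 and 13.2% in adult cells. In each library the 2 medians of both measures stood well apart, with the mitochondrial share higher in adult and the ribosomal share higher in embryonic cells. Adult-class cells held fewer non-globin UMIs, so shares of cells are given at a matched number of them.

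Malat1, a long RNA that stays in the nucleus, was higher in the embryonic class of all 4 libraries. Its median share of the non-globin UMIs of a cell was 3.52, 3.596, 4.42 and 4.38% in embryonic cells and 0, 0, 0 and 0% in adult cells. At 500 non-globin UMIs per cell, Malat1 was detected in 98.3, 96.8, 95 and 98.9% of embryonic cells and 23.9, 21.5, 15.2 and 16.7% of adult cells, and without thinning in 99.1, 97.5, 97.5 and 98.9% and 33.6, 39.0, 32 and 27.8%. The exact 95% intervals of the 2 classes stood apart in each library, the nearest being 83.1 to 99.4% in embryonic and 8.74 to 23.8% in adult minoxidil cells. Malat1 summed over cells was 41728, 39985, 44273 and 49522 CPM in the embryonic and 4612, 3548, 1273 and 3865 CPM in the adult class (mean log2 ratio 3.87 ± 0.86, SD over the 4 libraries). Single cells weighed on the adult sums, the cell with the most Malat1 holding 24.1, 28.9, 55.6 and 64.1% of them.

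**Figure D2:**
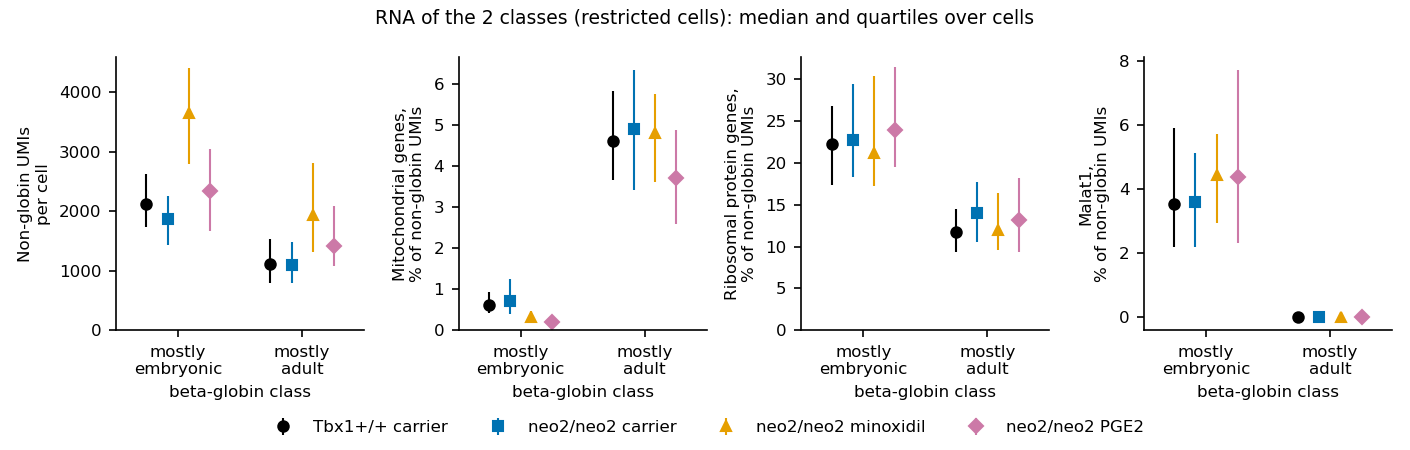
Per-cell RNA measures of restricted cells of the mostly embryonic and mostly adult β-globin classes in the 4 libraries, with points at the median over cells and bars from the lower to the upper quartile. Mitochondrial shares are higher in the adult class, and Malat1 and ribosomal protein shares higher in the embryonic class, in every library.

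Non-globin genes were compared between the classes within each library. A gene counted as different when its ratio was at least 1.5-fold on the same side in all 4 libraries. A gene with 0 UMIs in 1 class was set at 3 UMIs there, so such a ratio is a lower bound. In all erythroid cells, 240 of 3717 genes (6.46%) were higher in the embryonic class and 278 (7.48%) in the adult class. In restricted cells, where fewer genes passed the minimum of 20 CPM, 438 of 2143 genes (20.4%) were higher in the embryonic and 449 (21.0%) in the adult class, and the Poisson intervals of the 2 classes stood apart in all 4 libraries for 186 and 240 of them. The classes were set by β-globin alone, and no other gene was used for them. Restricted cells were further chosen by total globin and by markers of other cell types. The restriction thus limits those markers, here and in the comparisons of libraries. The values that follow are from restricted cells, and ± is the SD over the 4 libraries, which differ in genotype and treatment.

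Hmox1, the heme oxygenase that breaks down heme, was among the genes furthest to the embryonic side, whose order depends on how counts of 0 are set. It had 322, 271, 218 and 215 UMIs in embryonic cells, or 1257, 889, 1494 and 926 CPM, and 1, 4, 0 and 0 UMIs in adult cells (mean log2 ratio 6.85 ± 0.54, with 2 libraries at their bound). Fam174b had 150, 131, 86 and 130 UMIs against 0, 0, 1 and 0, and Cited4, a transcriptional co-regulator, 129, 149, 59 and 205 against 0, 1, 0 and 15. The adult class was at or near 0 for all 3 genes in every library except for Cited4 with PGE2. Pdzk1ip1, a small membrane protein, stood at 1898, 1969, 2480.5 and 2209 CPM against 35.6, 59.2, 59.7 and 33.7, and Hsd3b6, a steroid dehydrogenase, at 1988, 1529, 1370.5 and 1692 CPM against 42.7, 49.9, 115 and 125. Tal1, a core factor of blood development, stood at 629, 581, 877 and 474 CPM against 42.7, 31.2, 18.4 and 21.7 (4.53 ± 0.73). The abundant Nudt4, a diphosphoinositol polyphosphate phosphohydrolase, stood at 24004, 22967, 26936 and 14596 CPM against 1409, 1347, 1181 and 1356.5 (4.03 ± 0.45). The factor Arid3a, the atypical chemokine receptor Ackr3 and Frat2, which binds the kinase GSK3, were 17.9 to 23.4-fold, 13.4 to 31.6-fold and 11.8 to 49.2-fold higher in embryonic cells.

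On the adult side, Ube2c, the ubiquitin-conjugating enzyme of the anaphase-promoting complex, was 39.6 to 66.4-fold higher, at 3865, 3052.5, 3212 and 3534.5 CPM in adult and 97.6, 45.9, 61.7 and 68.9 CPM in embryonic cells (-5.69 ± 0.31, as embryonic over adult). The membrane protein Mpp1 stood at 1338, 948, 1222 and 879 CPM against 19.5, 3.28, 0 and 12.9, the phospholipase Pla2g16 at 947, 998, 772 and 928 against 15.6, 6.56, 0 and 0, and Lmo2, a partner of Tal1 in its complex, at 448, 352, 478 and 376 against 3.90, 9.85, 0 and 0. Tal1 and Lmo2 thus lay on opposite sides. The dipeptidase Pepd, the ubiquitin ligase adaptor Dcaf12, Nxpe2 and Syt14 were 24.8 to 162-fold, 23.7 to 97.9-fold, 15.0 to 34.2-fold and 19.0 to 38.2-fold higher in adult cells.

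**Figure D3:**
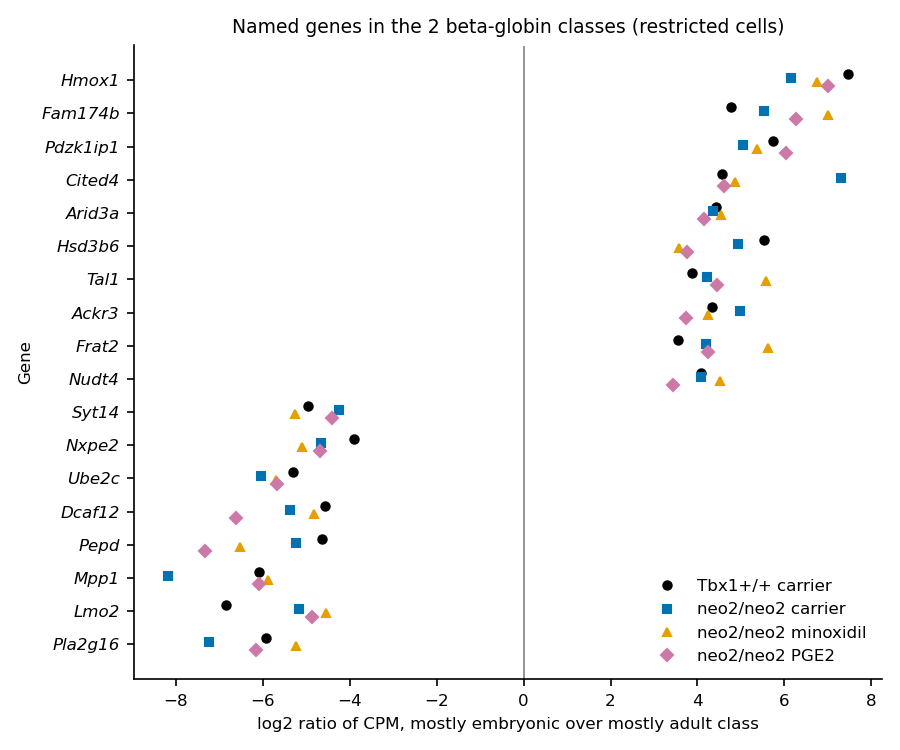
Log2 ratio of CPM in embryonic-class over adult-class restricted cells for 18 genes named by the rule, with 1 point for each library and a line at 0. All 4 libraries lie on the same side for each gene, as the rule that chose them requires, and Hmox1 and Mpp1 lie among the furthest out.

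The most abundant non-globin genes overall were Fth1, Gm42418, Ftl1, Malat1, Tpt1, Ubb, Gpx1, Rpl41, Prdx2 and Rps2. Fth1, the heavy chain of the iron store ferritin, stood at 126844, 127725, 112514 and 103366 CPM in embryonic and 50536, 49916, 49853 and 52102 CPM in adult cells (1.21 ± 0.17), while the light chain Ftl1 was nearly level at 65513, 65026, 64165 and 67915 against 57946, 57471, 58639 and 60694 CPM (0.16 ± 0.02). Gpx1, a glutathione peroxidase, stood at 5861, 4486.5, 5379 and 3767 CPM in embryonic and 26841, 22671, 28159 and 29163 in adult cells, and the peroxiredoxin Prdx2 at 11863, 10765, 11169 and 8989.8 against 20976, 20598, 20490 and 20956. Both antioxidant genes were thus higher in adult cells of every library. Gm42418, a gene that overlaps ribosomal RNA sequence, stood at 38686, 72860, 64103 and 88370 CPM against 50145, 86647, 79621 and 93184, lowest in the Tbx1+/+ library in both classes.

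Lists of genes by function were counted against all 2143 genes, of which 20.4% were embryonic-higher and 21.0% adult-higher, with a median log2 ratio of -0.04. Of 17 measured genes of heme synthesis and transport that passed the minimum, 11 were higher in adult cells and 2 in embryonic cells (median -1.61). Alas2 stood at 2389.8, 1641, 2446 and 1541 CPM in embryonic and 9025, 6688, 9250.2 and 10673 CPM in adult cells, and the last enzyme of the pathway, Fech, at 578, 449.6, 678 and 357 against 2377, 1743, 2812 and 2879. The mitochondrial iron importer Slc25a37 had the largest difference on the adult side of this list, at 492, 354, 226 and 207 against 3908, 3265, 4283 and 4561 CPM. The enzymes Alad, Urod and Ppox, the Fe-S cluster protein Glrx5, and Fam210b, Tspo2 and Hebp1 were among the others on the same side. The 2 embryonic-higher members were Hmox1, which degrades heme, and Abcb10, a mitochondrial transporter, at 137, 167, 219 and 99.0 against 21.4, 37.4, 55.1 and 28.9 CPM. Uros, Cpox, Tmem14c and Blvrb did not pass the limit in all 4 libraries. In all erythroid cells, the counts of this list were again 11 and 2 of 17.

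Of the iron list, 2 of 5 genes were embryonic-higher (Fth1 and the iron chaperone Pcbp1) and 1 was adult-higher (median 0.16). The latter was Ncoa4, which delivers ferritin to breakdown, at 144, 75.5, 247 and 125 against 221, 287, 473 and 364 CPM. Of 19 membrane and skeleton genes, 7 were adult-higher and 2 embryonic-higher (median -0.81). Epb41 (protein 4.1), Bsg (basigin), Cd47, Rhd, Rhag and Ank1 were among the adult-higher genes, and Add2 and Gypc embryonic-higher. Slc4a1, Epb42, Kel and Xk were among those that did not pass the limit in all 4 libraries, Epb42 being nearly level at 148, 118, 206 and 108 against 135, 122, 161 and 120.5 CPM. Of 2 further globins, Hbq1b was embryonic-higher at 499.8, 423, 500.2 and 319 against 171, 175, 124 and 166 CPM and Hbq1a was at 285, 263, 329 and 284 against 377, 262, 312 and 284. These are near-identical copies, so their split is uncertain.

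Of 9 red cell enzymes, 5 were adult-higher (Car2, Bpgm, Prdx2, Pnp and Gpx1) and 1 embryonic-higher (Sod1), with a median of -0.96. Bpgm, which makes the 2,3-bisphosphoglycerate that lowers the oxygen affinity of hemoglobin, stood at 4682, 3663, 3721 and 2308 CPM in embryonic and 12634, 10199, 11539 and 10820 in adult cells. Of 14 genes of terminal maturation and organelle clearance, 10 were adult-higher and 0 embryonic-higher (median -2.44), the lowest median of the lists. Mkrn1, a ubiquitin ligase, stood at 1105, 1185, 1055 and 831 CPM in embryonic and 13381, 13305, 13510 and 14295 in adult cells, Gabarapl2, an autophagy protein, at 707, 545, 432 and 452 against 4128, 4038, 4503 and 4452.5, and Bnip3l, a mitophagy receptor, at 2218, 1841, 2001 and 1511 against 5046.5, 4393, 5114.5 and 5267. The ubiquitin enzymes Ube2l6, Ube2h and Ube2o, the nuclear exportin Xpo7, Trim10 and Fbxo7 were among the others. Of the oxygen response list of 4 genes, the glucose transporter Slc2a1 was adult-higher at 1, 0, 1 and 0 UMIs against 54, 55, 67 and 74, and the mitophagy receptor Bnip3 embryonic-higher at 58, 68, 52 and 26 UMIs against 4, 5, 3 and 2. Bnip3 and its relative Bnip3l thus lay on opposite sides.

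Of 12 erythroid transcription factors, 5 were adult-higher (Lmo2, E2f2, Sox6, Foxo3 and Tfdp2) and 2 embryonic-higher (Tal1 and Bach1), with a median of -1.25. The cell cycle factor E2f2 had 0, 2, 1 and 1 UMIs in embryonic against 31, 24, 44 and 75 in adult cells, and its partner Tfdp2 stood at 93.7, 49.2, 34.3 and 38.7 against 1658, 1419, 1470.5 and 1347 CPM. Klf1, the activator of adult β-globin, was at 18, 15, 5 and 10 UMIs in embryonic and 12, 12, 24 and 23 in adult cells and did not differ in a steady direction. Sox6, which silences embryonic globin, was the only gene of the list of definitive-cell genes that passed the minimum, and neither Aqp3 nor Aqp8, listed for primitive cells, passed it. Of 5 cell cycle inhibitors, Cdkn2c and Cdkn1b were embryonic-higher (median 1.12), with Cdkn1b at 184, 151, 164 and 254 against 78.3, 78.0, 78.1 and 60.2 CPM. Of 6 immediate early and heat shock genes, Junb, Ier2 and Dnajb1 were embryonic-higher (median 0.98), and of 5 chromatin condensation genes 0 passed in either direction. Markers of other cell types also differed between the restricted classes, with 3 of 4 mesenchymal markers (Col1a1, Col1a2 and Dcn) and 2 of 4 epithelial markers (Krt8 and Prss16) adult-higher, and their part in the list counts was not tested. Of 11 targets of the drugs, which are subunits of potassium channels that minoxidil opens, PGE2 receptors, and enzymes that make or break down prostaglandins, 0 passed the minimum in restricted cells, and their summed UMIs were 9, 5, 5 and 4.

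**Figure D4:**
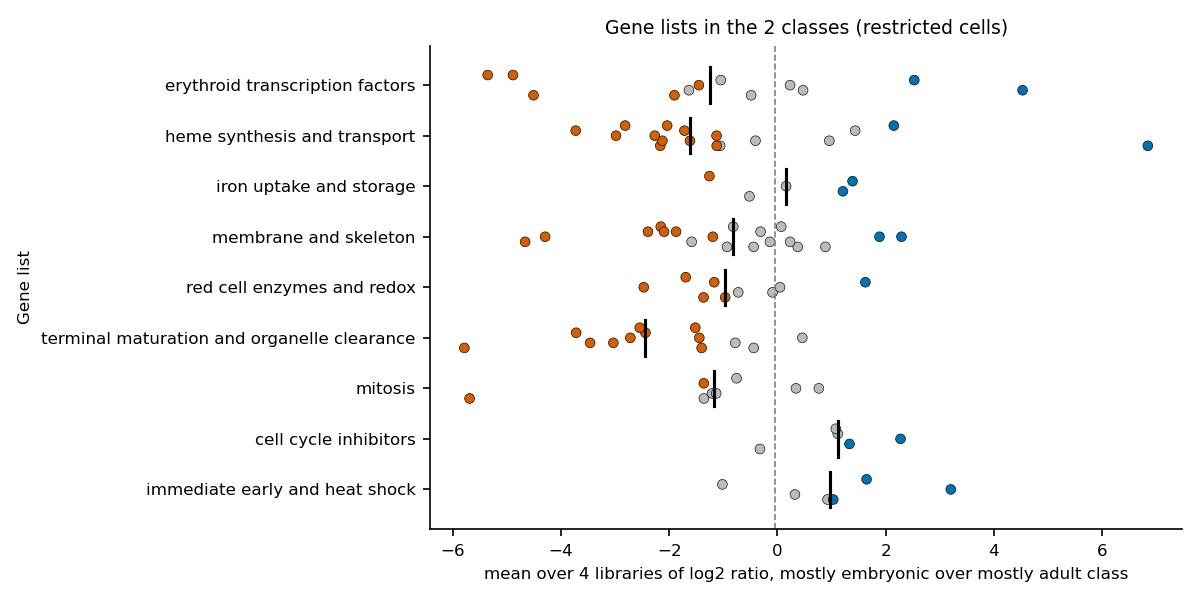
Log2 ratio of embryonic over adult class in restricted cells, as the mean over the 4 libraries, with 1 point for each gene of 9 lists, a bar at the median of the list and a dashed line at the median of all genes (-0.04). Blue and orange points are genes past 1.5-fold in all 4 libraries on the embryonic and the adult side, and grey points are the others. The lists of terminal maturation (0 embryonic-higher and 10 adult-higher of 14) and heme synthesis (2 and 11 of 17) lie furthest to the adult side among lists of at least 10 genes.

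Of the cell division genes, Ube2c stood out between the classes. Of 8 mitosis genes, 2 were adult-higher, Ube2c and Ccnb2, a share close to the 21.0% of all genes, and of 12 replication genes only Tyms and Rrm2 passed the minimum and both were adult-higher. At 500 non-globin UMIs per cell, at least 1 UMI of the 12 replication genes was found in 17.4, 10.8, 14.1 and 8.16% of adult and 10.4, 6.33, 2.50 and 6.67% of embryonic cells, with intervals that overlapped in all 4 libraries, and without thinning in 44.2, 23.2, 38 and 26.5% and 33.9, 18.4, 17.5 and 13.3%. At 500 non-globin UMIs per cell, at least 2 UMIs of the 12 mitosis genes were found in 29.6, 24.7, 29.6 and 29.5% of all erythroid cells, with overlapping intervals, and without thinning in 44.9, 41.7, 59.4 and 59.0%. The share was 3.48, 1.27, 2.50 and 0% in restricted embryonic cells and 57.8, 42.2, 41.4 and 41.6% in adult cells, and without thinning 10.4, 6.33, 15 and 11.1% and 74.3, 61.4, 79 and 76.3%. In the PGE2 library 0 of 90 embryonic cells had them after thinning, which at this depth allows a share of up to 4.02% (upper exact bound), and 10 of 90 without thinning. Ube2c alone was detected in 75.2, 59.8, 58.6 and 63.7% of adult cells and 5.22, 1.90, 5 and 2.22% of embryonic cells. Without Ube2c, at least 1 UMI of the other 11 genes was found in 30.3, 13.1, 20.2 and 13.1% of adult and 11.3, 5.06, 7.50 and 10% of embryonic cells, and the intervals of the classes then overlapped in 3 libraries, the Tbx1+/+ carrier being apart (21.8 to 39.8% against 6.16 to 18.6%). Topoisomerase Top2a had 10, 13, 13 and 13 UMIs in adult cells and the cyclin-dependent kinase Cdk1 10, 14, 8 and 11, too few to compare. In the adult class Ube2c was thus found in more cells than the other 11 genes together, while in the embryonic class the other 11 were found in more cells than Ube2c.

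The libraries were compared in the same way, to ask how the cells of libraries labelled for the hypomorphic Tbx1 genotype, minoxidil and PGE2 differed. A gene was called when its CPM differed at least 1.5-fold with Poisson intervals apart, which compares 2 libraries and not the conditions. All 3 comparisons share the Tbx1neo2/neo2 carrier library. Over all erythroid cells and 3717 genes, 5.03% of genes were called higher and 5.78% lower in the Tbx1neo2/neo2 than in the Tbx1+/+ carrier library. With minoxidil 7.94% were called higher and 38.0% lower than in the Tbx1neo2/neo2 carrier library, and with PGE2 4.92% higher and 10.5% lower. The balance depended on the scaling. With factors from the trimmed mean of M-values (TMM) 733 genes were called higher and 404 lower with minoxidil, 294 and 223 with PGE2, and 228 and 152 between the carrier libraries. Scaled to all UMIs, globins included, they were 44 and 2390, 40 and 1808, and 265 and 128. These counts also moved with the choice of cells. The Tbx1neo2/neo2 carrier library had 47 cells that carried other markers and the minoxidil library none. The median log2 ratio over all genes was -0.97 with minoxidil. It was -0.27 without the cells with other markers, -0.13 with at least 50% globin UMIs, and 0.03 in restricted cells. Of the 226 genes that were called higher with minoxidil and enriched in erythroid over other cells by at least 2-fold, 42 were also called in restricted cells. In restricted cells of the adult class (1961 genes) 0.918% were called higher and 2.96% lower in the Tbx1neo2/neo2 than in the Tbx1+/+ carrier library, 2.45% and 2.40% with minoxidil, and 0.969% and 5.05% with PGE2. In the embryonic class (2131 genes) 0.657% were called higher and 2.35% lower in the first of these comparisons, 2.49% and 0.892% with minoxidil, and 2.39% and 2.39% with PGE2. The libraries differed in their embryonic share, and its part in the ranks of genes in all erythroid cells was not tested. A single cell can hold much of a gene's UMIs, and of 527 calls in the restricted classes 212 (40.2%) were lost when the cell with the most UMIs of the gene was left out of the higher library, an alternative chosen after seeing the data.

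**Figure D5:**
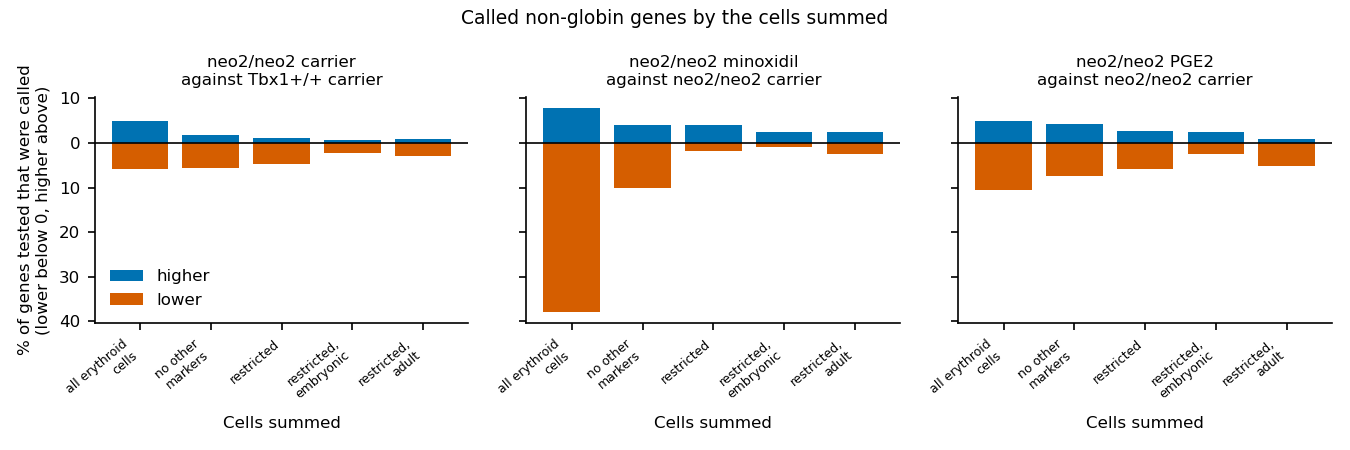
Percent of tested genes called higher (above 0) and lower (below 0) in each of the 3 library comparisons, for all erythroid cells, cells without other markers, restricted cells, and restricted cells of each β-globin class. The 38.0% of genes lower with minoxidil in all cells compares with 2.40% in adult-class and 0.892% in embryonic-class restricted cells. Values are scaled to non-globin UMIs, and with TMM more genes were higher than lower in all 3 comparisons of all cells.

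Between the Tbx1neo2/neo2 and the Tbx1+/+ carrier libraries, the heme, iron and enzyme lists had 0 genes called in either class. Of 3 genes of the oxygen response and glycolysis list, 2 were called lower in the adult class (median log2 ratio -1.06) and 1 in the embryonic class (-0.44). The glycolytic aldolase Aldoa stood at 377, 181, 294 and 116 CPM in adult-class cells (0.479-fold, 95% interval 0.325 to 0.709), with 823, 458, 739 and 550.2 CPM in the other kept cells. Slc2a1 was 0.446-fold there, a call lost without the cell with the most Slc2a1 (0.719-fold). Ldha, lactate dehydrogenase A, was 0.363-fold (95% interval 0.189 to 0.670) in embryonic-class cells. Of 14 maturation genes 1 was called lower in the adult class, Trim10 (0.663-fold), and this call was lost in the same way (0.697-fold). In adult-class cells 4 of 6 genes of the immediate early and heat shock list were called lower and 0 higher (median log2 ratio -2.10, against -0.19 for all genes), and in embryonic-class cells 1 of 6 (-0.91 against -0.25). Fos had 23, 6, 15 and 30 UMIs in the 4 adult classes, or 164, 18.7, 68.9 and 72.3 CPM, Junb 17, 4, 10 and 17 UMIs, Ier2 17, 8, 20 and 22 and Jun 15, 9, 9 and 18. In CPM, the Tbx1neo2/neo2 carrier library was the lowest of the 4 for these genes in the adult class. The ratio to the Tbx1+/+ library was 0.114-fold (95% interval 0.0381 to 0.289) for Fos and 0.103-fold (95% interval 0.0252 to 0.316) for Junb. The other kept cells moved with them, with Fos at 661, 137, 662 and 771 CPM, Junb at 302, 106, 313 and 308, Ier2 at 370.3, 159, 349.9 and 296 and Jun at 599, 427, 537 and 667, and the part of free RNA and of handling in the erythroid values was not tested. Jun, Fosb and the antiproliferative Btg2 were called lower in both classes, with 14, 0, 1 and 6 UMIs of Fosb in embryonic and 7, 0, 4 and 10 in adult cells. Of 11 transcription factors E2f2 was called lower in the adult class, and of 17 membrane genes Add2 was called higher in the embryonic class. Without the cell with the most UMIs of the gene, the calls of Jun in the adult class (0.299-fold) and of Add2 (1.98-fold) were lost.

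Other genes lower in both classes are known from other cell types. Pth, the parathyroid hormone, had 24, 0, 0 and 0 UMIs in adult-class and 22, 0, 0 and 0 in embryonic-class cells, and stood at 626, 0.0218, 0.0272 and 1.61 CPM in the other kept cells. The keratin Krt18 had 23, 12, 13 and 27 and 24, 4, 13 and 14 UMIs, with 943, 376, 892 and 915 CPM in the other kept cells. Pth was thus high in the other kept cells of the library whose restricted cells held it. The gene minimum is a mean over the 4 libraries, and Pth passed it through the Tbx1+/+ library alone. Its lower call follows from that and is given as a description. Krt18 was found in all 4 libraries and was lowest in the Tbx1neo2/neo2 carrier library in both classes and in the other kept cells. The part of free RNA in these values was not tested. Ifitm1, Pabpc1 and Ybx3 were also lower in both classes, and Gm42418, mt-Nd2 and mt-Nd3 higher.

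Genes of the mitochondrial genome made up many of the calls in the embryonic class. There 8 of 11 of them were called higher in the Tbx1neo2/neo2 than in the Tbx1+/+ carrier library, of 14 higher genes in all. They were mt-Nd1, mt-Nd2, mt-Nd3, mt-Nd4, mt-Co2, mt-Co3, mt-Atp6 and mt-Cytb. The same 8 were called lower with minoxidil than in the Tbx1neo2/neo2 carrier library, of 19 lower genes in all, and all 16 calls were kept without the cell with the most UMIs of the gene. The 2 comparisons share the Tbx1neo2/neo2 carrier library. With PGE2 3 of the 11 were called higher, and 0 of these calls were kept without that cell. Summed mitochondrial transcripts were 0.686, 1.19, 0.473 and 1.38% of the non-globin UMIs of embryonic-class cells, and 0.681, 1.12, 0.435 and 0.510% without the cell with the most of them, which held 64.2% of the sum in the PGE2 library. The Tbx1neo2/neo2 carrier library was then the highest of the 4. In the adult class 2 of 13 mitochondrial genes were called higher in the Tbx1neo2/neo2 carrier library, 1 of 13 lower with minoxidil and 7 of 13 lower with PGE2, 6 of these without the richest cell, and the sum was 5.17, 5.65, 5.11 and 3.91%. In the other kept cells it was 4.64, 5.33, 4.40 and 4.77%. Mitochondrial transcripts also vary with the quality of cells, and the part of RNA quality in these values was not tested. The group was singled out after its values were seen.

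The mitochondrial mt-Nd2 stood at 804, 1325, 629.5 and 458 CPM in adult-class and 179.6, 535, 164 and 818 CPM in embryonic-class cells, and a single cell held 70% of the mt-Nd2 UMIs of that class in the PGE2 library. Without the cell with the most UMIs, the calls of mt-Nd2 in the adult class (1.47-fold) and of Pabpc1 in the embryonic class (0.671-fold) were lost. By the rule on erythroid-enriched genes in all cells, Sh3yl1, Gm42418 and Cox6b2 (log2 ratio -0.14 in the adult class of all cells) were the 3 higher genes, and Lyl1, Tnfrsf23, Lmx1a, G430095P16Rik, Syt5, Pop5, Slc39a8, Fbxo6, 1300017J02Rik and Dyrk3 the furthest of 32 lower genes. Lyl1, a relative of Tal1, stood at 336, 141, 384 and 181 CPM in embryonic-class cells (0.420-fold, 95% interval 0.284 to 0.613), and at 27.1, 6.95, 22.2 and 20.8 CPM in the other kept cells. Epithelial markers were called lower for 3 of 5 genes in the adult and 1 of 2 in the embryonic class. Of the 32 genes, 2 were also called in the restricted adult class and 4 in the restricted embryonic class.

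With minoxidil, Fech and Ncoa4 were called higher in both classes. Fech stood at 2377, 1743, 2812 and 2879 CPM in adult-class cells (1.61-fold, 95% interval 1.44 to 1.81) and at 578, 449.6, 678 and 357 CPM in embryonic-class cells (1.51-fold, 95% interval 1.15 to 1.97), against 1.08-fold in the other kept cells. Ncoa4 was 1.65-fold (95% interval 1.23 to 2.21) and 3.27-fold (95% interval 1.88 to 5.78), against 1.67-fold in the other kept cells. Isca1, which builds iron-sulfur clusters, was 2.41-fold and 1.77-fold, and in the other kept cells 2.48-fold. The RNA-binding Rbm38, Tmcc2, Ndufa3, Rpl15, Rpl27, Gm10073 and Gm10076 were among the other genes higher in both classes, and Tmsb4x, Ptn and mt-Nd2 the genes lower in both. Without the cell with the most UMIs of the gene, the embryonic-class calls of Fech (1.45-fold), Isca1 (1.66-fold), Ndufa3 (1.52-fold) and Tmcc2 (1.42-fold) were lost, and the adult-class calls of Tmcc2 (1.31-fold) and Ptn (0.605-fold).

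By list, 2 of 11 transcription factors were called higher with minoxidil in the adult class (median log2 ratio 0.42 against -0.03 for all genes), 1 of 16 heme genes (0.08), 1 of 18 membrane genes (0.26, Epb41) and 2 of 14 maturation genes (0.28, Xpo7 and Ube2l6, with Isg20 lower). The factors were Klf1, at 12, 12, 24 and 23 UMIs in the 4 libraries, and E2f2. In the embryonic class 1 of 11 factors (Tal1, 1.51-fold, 95% interval 1.19 to 1.91) and 2 of 18 heme genes were called higher, Fech and Hmox1 (1.68-fold, 95% interval 1.40 to 2.01). A single embryonic-class minoxidil cell held 23.9% of the Hmox1 UMIs of that library, and without it Hmox1 was 1.32-fold and no longer called. Without the cell with the most UMIs of the gene, the calls of Tal1 (1.33-fold) and, in the adult class, of Klf1 (2.50-fold), Xpo7 (1.36-fold) and Ier2 (3.23-fold) were also lost. E2f2 in adult-class cells stood at 221, 74.8, 202 and 181 CPM (31, 24, 44 and 75 UMIs), lowest in the Tbx1neo2/neo2 carrier library, which was 0.339-fold the Tbx1+/+ carrier, and the minoxidil library was 2.70-fold and the PGE2 library 2.41-fold the Tbx1neo2/neo2 carrier. The 3 ratios share 1 library with 24 UMIs, and without the cell with the most E2f2 the PGE2 ratio was 1.85 and no longer called. By the rule on enriched genes in all cells, Cyp4b1, F930017D23Rik, Lyl1, AK157302, E2f2, Lmx1a, Cox17, Redrum, Isca1 and Klf1 were the furthest of 226 higher genes (Klf1 being at a log2 ratio of -0.52 in the restricted embryonic class), and there was no lower gene that qualified. In all cells, 14 of 17 heme genes and 11 of 18 membrane genes were called higher with minoxidil, counts that did not hold in restricted cells. Of the immediate early list 1 of 6 genes was called higher in the adult class (Ier2, median 1.59), of 3 oxygen response genes 1 was called higher (Slc2a1, 1.80-fold, and 1.31-fold and no longer called without the richest cell), and of markers of other cells 1 of 5 mesenchymal genes was called lower and the 1 lymphoid gene tested, Gzma, higher there. In the embryonic class 1 of 2 epithelial markers was called higher, Krt18 (6.79-fold).

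With PGE2, Alas2 in adult-class cells stood at 9025, 6688, 9250.2 and 10673 CPM (1.60-fold, 95% interval 1.52 to 1.68) and Fech at 1.65-fold, the 2 genes called of 16 in the heme list (median log2 ratio -0.10 against -0.17 for all genes). In embryonic-class cells Alas2 was 0.939-fold and 0 of 18 heme genes were called higher, and 2 lower, among them Slc25a37 (list median -0.50 against -0.09). A single PGE2 cell held 45.8% of the Slc25a37 UMIs of that library and class, although the gene was called lower there (0.583-fold), and the call was kept without the carrier cell with the most Slc25a37 (0.613-fold). Whether the 2 classes responded differently was not tested. In embryonic-class cells 4 of 17 membrane genes were called lower, Slc4a1, Rhd, Add2 and Ermap (median -0.49), and 2 of 9 enzymes, Bpgm and Gclm. Of 3 oxygen response genes 2 were called lower there (median -0.80), Aldoa (0.588-fold) and Bnip3 (0.502-fold), the call of Bnip3 being lost without the richest cell (0.530-fold). The call of Add2 was lost without the carrier cell with the most Add2 UMIs (0.453-fold). Slc4a1 stood at 789, 745, 761 and 413 CPM there (0.555-fold, 95% interval 0.432 to 0.707) and at 1.05-fold in adult-class cells. Nudt4, among the genes furthest to the embryonic side, stood at 24004, 22967, 26936 and 14596 CPM in embryonic-class cells (0.635-fold, 95% interval 0.610 to 0.662) and at 1409, 1347, 1181 and 1356.5 CPM in adult-class cells. The PGE2 library was the lowest of the 4 for Slc4a1, Bpgm and Nudt4 in the embryonic class.

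Of the 6 immediate early and heat shock genes, 4 were called higher with PGE2 in the embryonic class (median 1.16), Jun, Junb, Ier2 and Hspa1a. All 21 Hspa1a UMIs came from a single cell, and the call of Ier2 was lost without its richest cell (1.71-fold). Junb stood at 375, 253, 336 and 646 CPM (2.56-fold, 95% interval 1.93 to 3.41) and Jun at 93.7, 19.7, 61.7 and 116 CPM (5.90-fold, 95% interval 2.39 to 17.5), with the other kept cells 2.91-fold and 1.56-fold higher in the same comparison. In the adult class 1 of 6 was called, Fos (3.86-fold, 95% interval 1.58 to 11.4, other kept cells 5.62-fold), and this call was lost without the cell with the most Fos (2.85-fold). Genes lower in both classes included the mesenchymal Col1a1, Col3a1, Igfbp5 and Ptn, and Id3, Srp14, Psma2, Tmsb4x, Fabp5 and Svbp. Of these, Col3a1 (0.325-fold), Psma2 (0.469-fold) and Fabp5 (0.879-fold) lost the call in the embryonic class, and Igfbp5 (0.416-fold) and Svbp (0.643-fold) in the adult class, without the carrier cell richest in the gene. Col1a1 had 10, 42, 4 and 8 UMIs in adult-class cells, and stood at 324, 899.8, 469 and 320.2 CPM in the other kept cells. Mesenchymal markers were called lower for 2 of 5 genes in the adult class and 2 of 2 in the embryonic class (median -2.74). The 1 lymphoid marker tested in the adult class, Gzma, was called higher (3.42-fold). By the rule on enriched genes in all cells, Hemgn, E2f2, Cldn13, Cdc25b, Klf1, Isca1, Mt1, Cox17, Mfsd11 and Mt2 were the furthest of 66 higher genes, and Ermap, Gabarapl1, Nudt4 and 1110034G24Rik the 4 lower ones. The direction of several turned by class. The log2 ratio was -1.55 for Mfsd11 in the adult class and -0.026 for Cdc25b in the embryonic class of all cells, -0.19 for Klf1 and -0.21 for Mt1 in the restricted embryonic class, and -0.13 for Mt2 in the restricted adult class. In the adult class of all cells it was 0.28 for Nudt4 and 0.034 for 1110034G24Rik. Of the 66, 26 were also called in restricted cells, 9 in the restricted adult class and 5 in the restricted embryonic class. The phosphatase Cdc25b stood in adult-class cells at 548, 368, 611 and 677 CPM (1.84-fold, 95% interval 1.48 to 2.30), whereas Hemgn was 0.944-fold there.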

How the data were processed

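Single-cell RNA of E13 to 13.5 thymic lobes was deposited as UMI counts per gene and cell, 1 matrix of 27998 genes for each of the 4 libraries. Per the labels, the authors made these counts with Cell Ranger 5.0.1 on mm10 and analysed them in Seurat. Whether intronic reads were counted is not given in the sources used here. The deposited counts were used as they stand, no doublet caller was run, and cells were filtered as the report gives. The members and the gene lists were chosen with earlier results of these data known. Restricted cells were defined after the data were seen.

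UMIs of the cells of a library were summed, the 7 globin genes and their UMIs were left out, and values were scaled to CPM. Genes with a mean of at least 20 CPM over the 4 libraries were compared. A gene high in 1 library can pass through that library alone, and its call then follows from the minimum. A gene was called at 1.5-fold or more with 95% exact Poisson intervals apart, and a count of 0 was set at a floor of 3 counts per library. No fold is given where both sums were 3 or fewer. With 1 library per condition no test was run. Shares of cells were taken after thinning cells to 500 non-globin UMIs. Cells with fewer were left out, which were 4, 11, 1 and 0 of all erythroid cells. The genes named are the globins, listed genes, the 10 most abundant genes, the 10 furthest called genes in each direction with at least 2-fold the CPM of the other kept cells, and for the classes the 10 furthest in each direction past 1.5-fold in all 4 libraries. Genes called in both restricted classes, Lyl1 by class, and Pth, Krt18, Col1a1 and the mitochondrial genes were named after their values were seen. Alternatives covered the cell filters, scaling (also TMM of edgeR 4.0.16 in R 4.3.3), gene minimum, fold, cells without other markers, and leaving out the cell richest in a gene. The calling rule was also run on simulated Poisson counts with set folds. Those counts hold no variation between cells, embryos or libraries, so the run cannot show how far such variation made calls here. Scripts used Python 3.11.15, numpy 2.4.6, scipy 1.17.1, pandas 2.3.3 and matplotlib 3.10.9. A few genes that met these rules are not reported here. Promoter sequences are from RefSeq (GRCm38.p6).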

Additional observations from a re-analysis of the deposited data

How the results depend on the processing

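Of the alternatives tried, the embryonic share of erythroid cells kept its value within counting error in 27 of 28 cases, the exception being 31.3% in the Tbx1neo2/neo2 carrier library with no minimum of genes (chosen after seeing the data). Some of these cases could hardly move it. A mitochondrial limit of 20% left the same erythroid cells, and few cells lay between class limits of 30 and 70%. The erythroid share depended more on the cell filters. It was 3.62, 10.6, 6.55 and 13.8% with a mitochondrial limit of 5%, where fewer other cells were kept, and 1.05, 1.58, 2.80 and 2.91% with at least 500 genes. With at least 50% globin it was 4.10% in the Tbx1neo2/neo2 carrier library, and with no minimum of genes 5.53% there and 10.04% with PGE2. The share of cells with mitosis UMIs was 10.1, 10.1, 13.3 and 14.6% when thinned to 200 UMIs, 44.9, 41.7, 59.4 and 59.0% without thinning, 45.7, 38.1, 49.3 and 52.0% with 1 UMI, and 22.2, 10.6, 16.9 and 13.5% with 1 UMI and without Ube2c. Of the genes between classes, 518 were past the limit in all cells and 887 in restricted cells. Called genes numbered 402 (187 higher and 215 lower) for the Tbx1neo2/neo2 over the Tbx1+/+ carrier library, and 644 with no filter on low genes, 109 at a minimum of 100 CPM, 237 at 2-fold, 211 with cells weighted equally, 214 without cells with other markers, 171 at 50% globin, 124 in restricted cells, 64 in the restricted embryonic and 76 in the restricted adult class, with 87 higher and 307 lower in the embryonic and 350 and 223 in the adult class of all cells. Scaled to all UMIs the split was 265 higher and 128 lower, and with TMM 228 and 152. For minoxidil 1707 genes were called (295 higher and 1412 lower), and 1137 with TMM (733 and 404), 583 at 100 CPM, 706 with cells weighted equally, 821 in the embryonic class, 404 without cells with other markers, 300 at 50% globin, 126 in restricted cells, and 72 and 95 in the restricted embryonic and adult classes, with 44 and 2390 when scaled to all UMIs. For PGE2 575 genes were called (183 and 392), and 1848 scaled to all UMIs (40 and 1808), 934 with no filter, 168 at 100 CPM, 292 at 2-fold, 358 with cells weighted equally, 367 in the embryonic class, 332 without cells with other markers, 179 in restricted cells, and 102 and 118 in the restricted embryonic and adult classes, with 294 and 223 by TMM. The median log2 ratio of all genes was -0.06, -0.97 and -0.17 in the 3 comparisons, 0.09, -1.67 and -0.76 when scaled to all UMIs, and 0.03, -0.15 and 0.00 by TMM. Named genes kept direction and call in 338 cases and direction alone in 151. In 12 cases the log2 ratio changed sign: Cox6b2 (-0.14, adult class), Klf1 with minoxidil (-0.52, restricted embryonic class), and with PGE2 Mt2 (-0.018 with cells weighted equally, -0.13 in the restricted adult class), Cdc25b (-0.026, embryonic class), Mfsd11 (-1.55, adult class), Nudt4 (0.28, adult class, and 0.010, restricted adult class), 1110034G24Rik (0.034, adult class), Klf1 (-0.19) and Mt1 (-0.21) in the restricted embryonic class, and Hemgn (-0.082, restricted adult class). The cause of these changes was not tested. Without the cell richest in the gene, 212 of 527 calls in the restricted classes were lost, and the log2 ratio changed sign for Rgcc (-3.03), Ppia (-0.59), mt-Nd1 (-1.12), mt-Nd2 (-1.08) and mt-Atp6 (-0.95) with PGE2 in the embryonic class, and for Ctla2a (0.38) between the carrier libraries in the adult class. No paired analysis was possible because each condition had 1 library and no test was run.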

Other observations

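The embryonic class also varied within itself. Restricted embryonic cells in which Hba-x made at least 40% of α-like UMIs had the highest Hbb-bh1 share of β-like UMIs of the bins under 20%, 20 to 40% and 40% or more in all 4 libraries, at 1.16, 0.790, 0.599 and 1.31%. Their median Malat1 share was the lowest of the 3 bins in all 4 libraries, at 2.06, 1.68, 0.772 and 2.52% of non-globin UMIs. Below 40% the Hbb-bh1 share did not follow Hba-x in every library, and with minoxidil it was 0.388% under 20% and 0.288% from 20 to 40%. Hbb-bh1 is a small part of the embryonic β-globin, both globins were read from the same cells, the minoxidil top bin held 7 cells, and the bins were chosen after the values were seen.

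Cells that held a little globin were unevenly spread. Cells with 1 to 5% globin UMIs made up 11.1% of the kept Tbx1+/+ carrier cells (1276 cells), and numbered 27, 7 and 4 in the Tbx1neo2/neo2 carrier, minoxidil and PGE2 libraries. They were shallow, with a median of 4951, 4451, 1294 and 4318 UMIs. All kept cells with under 5% globin UMIs had a median of 21417, 14238, 42583 and 36985. The part of free globin RNA in them was not tested. All kept cells with under 5% globin UMIs held 0.0875, 0.0384, 0.0286 and 0.0327% of their UMIs on globins. Of their β-like UMIs 38.4, 34.0, 8.41 and 10.03% were embryonic, against 58.2, 42.1, 32.1 and 22.2% in the erythroid cells, lower in every library. These cells entered no comparison of the report other than as the other kept cells.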
